A study of Mus musculus with 4 samples.

Results

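The regions described here are autosomal stretches of open chromatin that were open in the tumour nuclei of a mouse tumour and nearly closed in its myeloid nuclei. They were chosen from the Sun1_WT accessibility library as peaks with at least 1000 counts in tumour nuclei whose CPM there (counts scaled to one common total over all peaks of the same nuclei) were at least 8 times those in myeloid nuclei. Of 127147 Sun1_WT peaks, 39998 were autosomal with at least 1000 tumour counts, and 11824 of these met the fold, which is 29.6% of the eligible peaks and 9.30% of all. Tumour nuclei were those with at least 5 Hmga2 UMIs per 10000 and at most 1 Ptprc UMI (a UMI is 1 counted RNA molecule). Myeloid nuclei had less Hmga2 and at least 5 UMIs summed over Lyz2, Msr1, Mrc1, Cybb, Ctss and Csf1r. The same regions were then read in the Sun1_KO library, which took no part in the choice, through the Sun1_KO peaks that overlap them.

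The study grew CT26 cells, a colon cancer line of BALB/c mice, under the skin of BALB/c mice and took the tumours on day 14. In Sun1_WT tumours the injected cells were wild type, and in Sun1_KO tumours Sun1, a nuclear membrane gene, had been knocked out in the injected cells, and BALB/c mice were the hosts of both. RNA and accessible DNA were read from the same nuclei, giving 1 expression and 1 accessibility library per genotype, 4 libraries in all. The sources used here do not give how many clones, guides or mice stand behind each library, nor which part of Sun1 was removed. With 1 library per group no test between groups was possible, so numbers of regions or genes past a fold are counts by size, and every interval is a 95% exact interval that covers counting error only.

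Transposase cuts DNA where nucleosomes are absent, so peaks of cuts mark promoters, enhancers and other regulatory DNA. Promoters are mostly open in many cell types, whereas distal enhancers differ more between cell types, because the factors that open them are expressed in some lineages only. AP-1 and TEAD factors bind many enhancers of carcinoma and mesenchymal cells, AP-1 not in these alone. The macrophage lineage relies on PU.1 and C/EBP factors.

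The gates gave 2352 tumour, 356 myeloid and 160 lymphocyte nuclei in Sun1_WT and 1442, 347 and 190 in Sun1_KO. Lymphocyte nuclei had at least 2 Ptprc UMIs, at least 3 UMIs of a lymphocyte list, less than 5 myeloid UMIs and low Hmga2. The 13 macrophage markers summed to 18757 CPM of RNA in Sun1_WT myeloid and 86.3 CPM in Sun1_WT tumour nuclei, and all 13 were detected in both. The epithelial markers Epcam, Cdh1, Krt8 and Krt7 were at or near 0 in the tumour gate, at 0, 5, 4 and 3 UMIs in Sun1_WT and 0, 2, 3 and 7 in Sun1_KO. Krt18 had 273 UMIs in Sun1_WT tumour nuclei, 6.27 CPM, and 1 UMI in those of Sun1_KO, with none in the myeloid nuclei of either. The 8 fibroblast markers, all detected, summed to 956 CPM in Sun1_WT and 819 CPM in Sun1_KO tumour nuclei. Tumour nuclei held 178996879 accessibility counts in Sun1_WT and 129482085 in Sun1_KO, against 9646100 and 9657447 in myeloid nuclei, so the myeloid side limits the precision of every ratio. Of all barcodes, 12 were shared between the libraries, 3 of them tumour nuclei in both. Even numbers made up 75.5% of the recorded accessibility values in Sun1_WT and 75% in Sun1_KO, so intervals were computed on halved counts.

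Promoters are the members for which sequence could be read, and 5 of the regions described below are shown here through the 250 bases before the gene start (RefSeq, GRCm38.p6, read 5′ to 3′ on the strand of the gene). Cald1 (chr6:34709194-34709443, + strand) and Sox2 (chr3:34649745-34649994, + strand) are shown because their regions were among those with the highest tumour over myeloid ratio in Sun1_KO. Ccn1 (chr3:145649986-145650235, - strand), Ptpn14 (chr1:189728018-189728267, + strand) and Wwtr1 (chr3:57575877-57576126, - strand) belong to the YAP and TEAD genes and hold a TEAD motif. Capitals mark the letters TGANTCA (AP-1) or GGAATG (TEAD) on either strand.
Cald1: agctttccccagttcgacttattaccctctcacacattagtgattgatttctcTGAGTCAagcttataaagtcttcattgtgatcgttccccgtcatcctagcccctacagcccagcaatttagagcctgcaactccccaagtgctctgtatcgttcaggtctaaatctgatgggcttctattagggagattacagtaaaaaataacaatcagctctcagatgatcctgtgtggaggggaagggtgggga
Sox2: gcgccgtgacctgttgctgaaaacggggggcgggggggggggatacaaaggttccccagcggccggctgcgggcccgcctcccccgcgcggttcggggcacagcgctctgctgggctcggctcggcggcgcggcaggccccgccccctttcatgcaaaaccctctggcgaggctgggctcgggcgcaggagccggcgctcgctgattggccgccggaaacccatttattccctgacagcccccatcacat
Ccn1: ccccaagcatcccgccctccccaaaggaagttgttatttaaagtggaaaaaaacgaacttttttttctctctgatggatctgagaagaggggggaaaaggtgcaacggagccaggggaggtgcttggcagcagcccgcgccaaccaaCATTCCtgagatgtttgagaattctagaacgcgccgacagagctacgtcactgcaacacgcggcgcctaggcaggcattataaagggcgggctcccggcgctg
Ptpn14: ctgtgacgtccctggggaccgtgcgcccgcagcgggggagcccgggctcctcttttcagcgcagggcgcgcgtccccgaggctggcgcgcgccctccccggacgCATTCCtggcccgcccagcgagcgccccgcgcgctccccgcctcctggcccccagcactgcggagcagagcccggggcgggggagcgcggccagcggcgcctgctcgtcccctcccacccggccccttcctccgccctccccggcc
Wwtr1: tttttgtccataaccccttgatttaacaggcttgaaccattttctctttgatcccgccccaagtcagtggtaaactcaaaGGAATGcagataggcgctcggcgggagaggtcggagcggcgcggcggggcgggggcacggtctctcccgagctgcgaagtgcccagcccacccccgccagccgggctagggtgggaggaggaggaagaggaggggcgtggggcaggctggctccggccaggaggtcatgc
Cald1 holds 1 AP-1 match and no TEAD match, Ccn1, Ptpn14 and Wwtr1 hold 1 TEAD match each and no AP-1 match, and Sox2 holds neither in this window. The promoters of Col5a1, Sparc, Twist1 and Twist2, read in the same way, held neither match and are not shown. A match of letters is a description and not a measured binding site.

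Over all promoters, windows of 300 bases, 250 before to 50 after the start, were compared by whether the start lay inside one of these regions. Such windows numbered 323 for 303 genes among 23777 autosomal windows in the RefSeq table, against 9443 with the start in another eligible peak and 14011 with the start in no eligible peak. The AP-1 letters TGANTCA were present in 18% (58) of the windows in tumour-over-myeloid regions, in 4.79% of the windows in other eligible peaks and in 7.49% of all windows. The TEAD letters GGAATG were present in 21.1% (68), 10.9% and 14.0%, and the NFI letters TTGGCA in 18.6% (60), 9.79% and 13.6%. The ETS letters CCGGAAGT, common in housekeeping promoters, went the other way, at 0.619% (2 windows) against 10.6% in other eligible peaks and 4.84% of all windows. The GC boxes of SP and KLF factors (GGGCGG) were found in 49.2% against 70.3%, with 42.8% over all windows.

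Base composition moved with these shares. The median GC content was 57.7% in the 323 windows, 62.3% in those of other eligible peaks and 50.3% where no eligible peak covered the start, and the median number of CG dinucleotides was 10, 23 and 4. Among windows with 50% to 65.2% GC, between the quartiles of the 323, AP-1 letters were found in 21.7% of 166 windows in tumour-over-myeloid regions and 5.50% of 5148 in other eligible peaks. The corresponding TEAD shares were 27.1% and 12.9%, and the ETS shares 1.20% and 12.1%. The NFI shares were 19.9% and 11.8%, and the SP and KLF shares 44.0% and 62.8%. The part of base composition in these differences was not tested further. The letters of PU.1 (GAGGAAGT), RUNX (TGTGGTT), C/EBP (TTGCNNAA) and NFY (CCAAT) were present in 3.10%, 4.95%, 7.43% and 36.8% of the 323 windows, and in 3.17%, 4.95%, 10.5% and 37.4% of all windows. In other eligible peaks these shares were 2.88%, 3.33%, 7.36% and 38.9%. The E-box letters CAGCTG were present in 19.5% of the 323 windows, 13.9% of those in other eligible peaks and 16.2% of all windows.

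Most of the regions were distal. Only 8.88% (1050) had their centre within 2 kb of an annotated gene start, while 45.8% (5420) lay in a gene body and 45.3% (5354) between genes, against 42.4%, 31.0% and 26.6% of the other eligible peaks. The share of eligible peaks that were tumour-over-myeloid regions rose with distance, from 3.75% within 200 bases of a start to 19.5% at 1000 to 2000 bases, 40.8% at 20000 to 50000 bases and 64.9% beyond 100000 bases. By chromosome, the share ran from 21.9% of eligible peaks on chromosome 11 to 35.8% on chromosome 1. Genes without a RefSeq promoter entry were given both gene ends as possible starts, which was the case for 6015 of the 26266 genes placed.

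**Figure D1:**
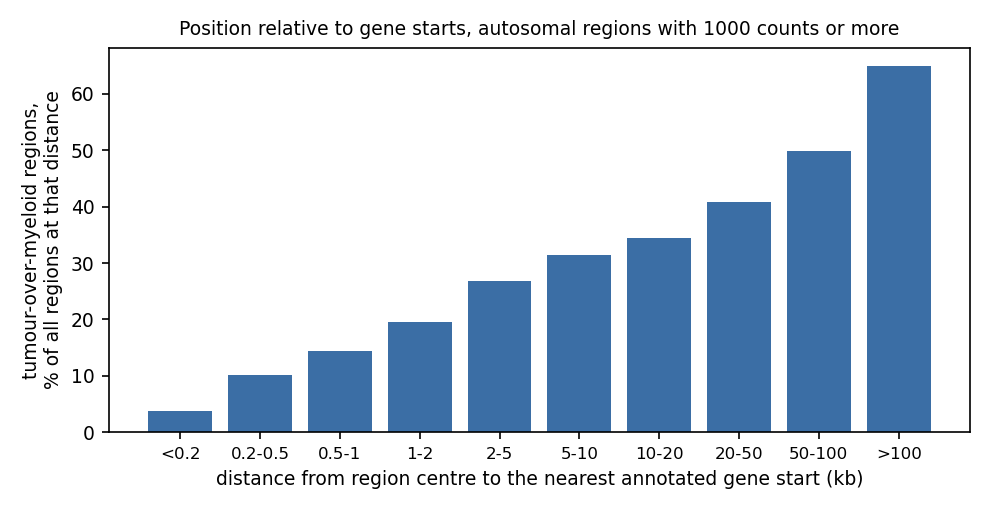
Bars give, for each class of distance from the region centre to the nearest annotated gene start (x axis, kb), the tumour-over-myeloid regions as a percentage of all eligible Sun1_WT peaks at that distance (y axis). The share rises from 3.75% within 0.2 kb to 64.9% beyond 100 kb.

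The regions lay in runs. After a tumour-over-myeloid region the next eligible peak along the chromosome was another one in 53.5% of cases, and after another eligible peak in 19.5%. There were 5505 runs without an intervening eligible peak, of which 3145 held a single region, 506 held 5 or more and 106 held 10 or more, and runs of 5 or more took in 33.6% of the regions. A run of 28 regions, the highest number in a run, lay on chromosome 3 from 123558170 to 126386950 and spans Ndst3, Ndst4 and Arsj. Summed over it, tumour nuclei had 413 CPM in Sun1_WT and 469 CPM in Sun1_KO, while myeloid nuclei had 20 and 11.7 CPM. Further runs held developmental transcription factors, 26 regions around Irx1 and Irx2 on chromosome 13, 25 around Nr2f2 on chromosome 7 and 21 around Osr1 on chromosome 12, with ratios of 37.7, 35.4 and 29.1 in Sun1_KO. A run of 20 regions on chromosome 1 from 45041407 to 45766407 spans the collagen genes Col3a1 and Col5a2, with 248.9 and 239.6 CPM in tumour and 12.2 and 8.91 CPM in myeloid nuclei of Sun1_WT and Sun1_KO. Both genotypes thus had high tumour and low myeloid levels over each of these runs, and the Sun1_WT levels are those that chose the regions.

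The tumour over myeloid difference was present in the second tumour. A Sun1_KO peak overlapped 11724 of the 11824 regions, and the ratio of Sun1_KO tumour over Sun1_KO myeloid CPM was at least 8 in 10657 of them (90.9%). Over all 39674 eligible peaks with a Sun1_KO peak 33.2% reached that ratio, and over the other eligible peaks alone 9.01%. The median ratio was 22.7 in the regions, or 21.4 with the 1055 regions that had no Sun1_KO myeloid count set at a floor of 3 counts, and 1.23 in the other eligible peaks. Of the regions, 11719 (99.96%) were at least 2-fold higher in Sun1_KO tumour than in Sun1_KO myeloid nuclei, where 53.1% of those 39674 eligible peaks were. Below 1 were 2 regions, both in Gas7, against 10800 of the 39674 eligible peaks. The share reaching 8-fold in Sun1_KO was 86.3%, 93.8% and 96.3% for regions with a Sun1_WT ratio of 8 to 16, 16 to 32 and 32 or more, and 50.2% for peaks just below the choice, at 4 to 8.

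**Figure D2:**
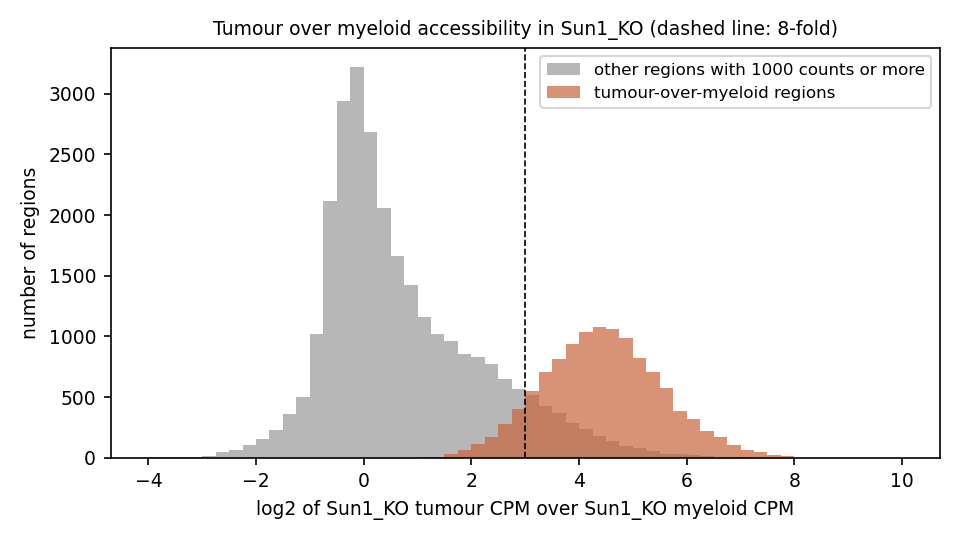
Numbers of regions (y axis) by the log2 ratio of Sun1_KO tumour over Sun1_KO myeloid CPM (x axis), for the tumour-over-myeloid regions chosen in Sun1_WT and the other eligible peaks, with ratios over a myeloid count of 0 computed against 3 counts. The chosen regions centre on a ratio of 21.4 and the others on 1.23, and 90.8% of the former lie right of the dashed line at 8-fold.

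As a description of the choice, the regions had a median of 2206 Sun1_WT tumour counts (1000 to 13720) and of 7 myeloid counts (0 to 83), and 659 had no myeloid count. Just inside the threshold, at a ratio of 8.0, stood a region in Lhpp (chr7:132699834-132700735, 2227 tumour and 15 myeloid counts), one at the Hoxc6 promoter (chr15:102998999-102999807, 11882 and 80) and one at the promoter of Sparc, a matrix glycoprotein (chr11:55419471-55420393, 2971 and 20). Just outside stood peaks near Magi3 (1336 and 9), Lipg (4750 and 32) and Yme1l1 (1039 and 7). In Sun1_KO the ratios were 7.97, 12.8 and 17.1 for those inside and 34.6, 17.2 and 31.5 for those outside, so the threshold did not separate these 6 in the other library.

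The 10 regions with the highest Sun1_KO ratio, ranked by the lower bound of its interval, lay both at promoters and far from gene starts. A region in Tspan9, a tetraspanin gene (chr6:128046591-128047481), had 8168 tumour and 16 myeloid counts in Sun1_WT and 5489 and 0 in Sun1_KO. With the 0 set at the floor of 3 counts the Sun1_KO ratio was 136, and its interval starts at 55.5. The promoter region of Cald1, whose product binds actin and whose sequence is shown above (chr6:34709049-34709737), had 5720 and 20 counts in Sun1_WT and 4032 and 0 in Sun1_KO, a ratio of 100.2 at the floor with an interval that starts at 40.7. The promoter region of Sox2, a transcription factor of stem cells (chr3:34649396-34650270), had 8831 and 29 counts in Sun1_WT and 5526 and 2 in Sun1_KO, a ratio of 206 whose interval starts at 37.0. All 3 had low counts in lymphocyte nuclei too, at 12, 11 and 27 in Sun1_WT and 15, 13 and 16 in Sun1_KO.

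The rest of these 10 lay in or near other genes. A region 55540 bases from the Cyb5b start (chr8:107205743-107206660) had 6839 and 2 counts in Sun1_KO, a ratio of 255 (from 45.8). Regions in Inpp4b (chr8:81866798-81867664) and Fhl2, the gene of a LIM-domain cofactor (chr1:43169268-43169924), and near Shank3 (chr15:89488243-89489047) had no Sun1_KO myeloid count and 3891, 3547 and 3855 tumour counts. A region 75855 bases from Gm4710 (chr17:75936450-75937307) had 5446 and 2. On chromosome 18, regions in Arhgap26 and near Eif3j2 had 4793 and 4573 tumour counts and no myeloid count in Sun1_KO. In Sun1_WT the 10 had 8 to 35 myeloid counts, so a count of 0 in Sun1_KO was not matched by a 0 in Sun1_WT.

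At the low end, the ratios in Sun1_KO were 0.776 and 0.902 in Gas7, 1.67 in Stk38l (chr6:146733955-146734871), 1.81 in Zranb3 (chr1:128078918-128079766) and 1.81 near Cnep1r1 (chr8:88091349-88092251). The Stk38l region had 403 tumour, 18 myeloid and 121 lymphocyte counts in Sun1_KO. It was more open in lymphocyte than in tumour nuclei, at 21.3 CPM in Sun1_KO and 18.9 CPM in Sun1_WT, against 3.11 and 6.17 CPM in tumour nuclei.

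A Sun1_KO peak was missing for 100 regions, 0.846%, against 0.795% (224) of the other eligible peaks. For 80 of the 100 another Sun1_KO peak lay within 1000 bases. The most counted of them was at the promoter of Hmga2, the gene that defines the tumour gate (chr10:120476500-120477157, 5966 tumour and 30 myeloid counts in Sun1_WT), where the nearest Sun1_KO peak was 854 bases away and no Sun1_KO value can be given. The second region at Hmga2 (chr10:120478020-120478807) had 2305 and 7 counts in Sun1_WT and 1798 and 5 in Sun1_KO, a ratio of 26.8 (7.62 to 109).

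Against lymphocyte nuclei, which the choice did not use, most of the regions were also low. The median ratio of Sun1_KO tumour over Sun1_KO lymphocyte CPM was 11.5, and 67.2% of regions reached 8-fold, where 28.5% of all eligible peaks did. Levels in both genotypes at once were counted in the regions alone, with no share over all eligible peaks beside them, and describe the regions only. In both genotypes 43.5% (5139) of the regions had a lymphocyte level at most an eighth of the tumour level. The exceptions were 125 regions (1.06%) with a lymphocyte level at or above the tumour level in both genotypes. Among the 12 of these with most lymphocyte counts, a set chosen after its values were seen, was the promoter region of Lef1, a T-cell transcription factor (chr3:131111841-131112733). It stood at 25.2 CPM in tumour, 2.70 in myeloid and 42.0 in lymphocyte nuclei of Sun1_WT, and at 32.9, 3.42 and 45.2 CPM in Sun1_KO. Another, 34975 bases from the start of Tigit, a T- and NK-cell receptor gene (chr16:43698733-43699586), stood at 29.7, 2.28 and 42.4 CPM in Sun1_WT and 29.3, 5.59 and 49.9 CPM in Sun1_KO.

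The name tumour-specific, used for these regions, does not hold against all other nuclei, and they are called tumour-over-myeloid regions here. In single nuclei, the regions took a median of 18.1% of all peak counts in Sun1_WT tumour nuclei, 0.466% in myeloid and 1.57% in lymphocyte nuclei. The same medians were 17.3%, 0.472% and 1.35% in Sun1_KO. Nuclei below 5% were 7 of 2352 tumour nuclei in Sun1_WT and 11 of 1442 in Sun1_KO, and nuclei below 2% were 344 of 356 and 337 of 347 myeloid nuclei. Nuclei with both Hmga2 and more than 1 Ptprc UMI had medians of 14.0% and 14.0%.

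Nuclei outside all of these gates that carried at least 5 UMIs of the fibroblast list, a class set after the data were seen, were nearly as open as the tumour nuclei. In Sun1_WT these were 294 nuclei with a median share of 14.2%, fibroblast markers at 3910 CPM and Hmga2 at 247 CPM, where the whole tumour gate had 2785 CPM of Hmga2. In Sun1_KO they were 45 nuclei with a median of 13.0%. The 55 Sun1_WT nuclei among them with no Hmga2 UMI had a median of 14.1%. By region, the median ratio of tumour over these nuclei was 1.32 in Sun1_WT and 1.38 in Sun1_KO. In the other eligible peaks it was 0.966 and 1.00. In Sun1_WT 9416 regions (79.6%) were below 2, where 94.7% of the other eligible peaks were. A ratio of 8 was reached by 10 regions (0.0846%) and 5 other peaks (0.0177%). Whether these nuclei are host fibroblasts or tumour cells low in Hmga2 was not tested.

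**Figure D3:**
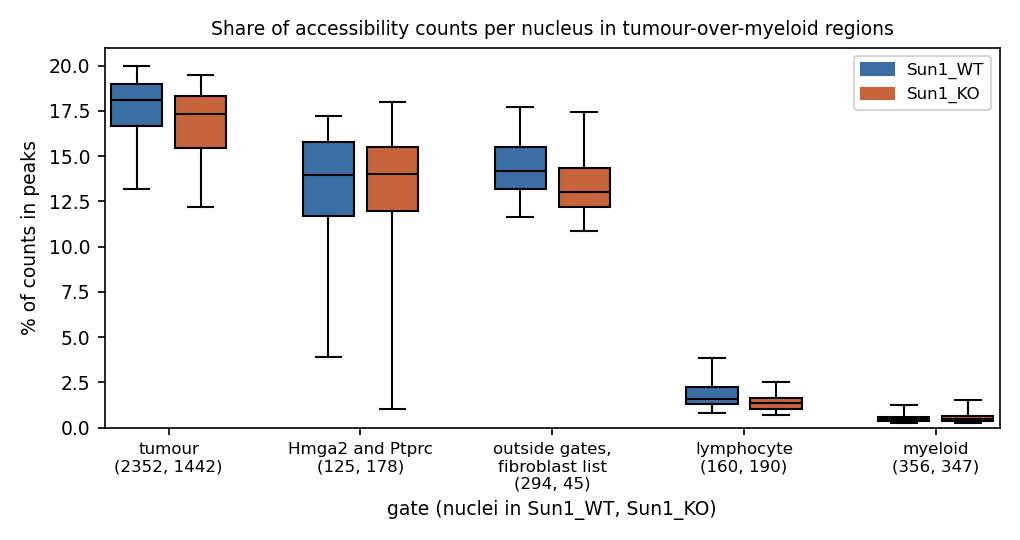
Boxes give the share of a nucleus' accessibility counts that fell in the tumour-over-myeloid regions (y axis, %), by gate and genotype, with the median, the quartiles and whiskers at the 5th and 95th percentiles, and the number of nuclei under each gate. Medians are 18.1% and 17.3% in tumour, 14.2% and 13.0% in nuclei outside the gates with fibroblast RNA, and 0.466% and 0.472% in myeloid nuclei.

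In myeloid nuclei the few counts were unevenly spread. Summed over nuclei, 1.09% of Sun1_WT myeloid counts fell in the regions, 0.561% in the 284 nuclei with no Hmga2 UMI and 2.55% in the 72 with at least 1. In Sun1_KO the values were 0.875%, 0.703% and 1.42%. The part that free DNA or RNA and doublets take in these counts was not tested.

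RNA was higher in tumour nuclei more often at genes with such regions than at genes without. Each region was assigned to the nearest gene start within 50 kb, which placed 8166 regions at 4612 genes. Among 2693 measured genes with at least 1 region (100 UMIs or more, gate genes left out), RNA was at least 2-fold higher in tumour than in myeloid nuclei for 50.4% in Sun1_WT, where 27.1% of all measured genes were, and at least 2-fold lower for 8.10%, where 14.3% of all were. In Sun1_KO the shares were 49.2% of 2538 genes higher, against 26.9%, and 7.72% lower, against 13.9%. The share of genes higher in tumour rose with the number of regions at the gene, 17.8% with none, 40.0% with 1, 57.0% with 2 or 3, 85.2% with 4 to 7 and 90.3% (28 of 31) with 8 or more in Sun1_WT. In Sun1_KO it was 17.9%, 39.0%, 55.4%, 82.9% and 96.7% (29 of 30).

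**Figure D4:**
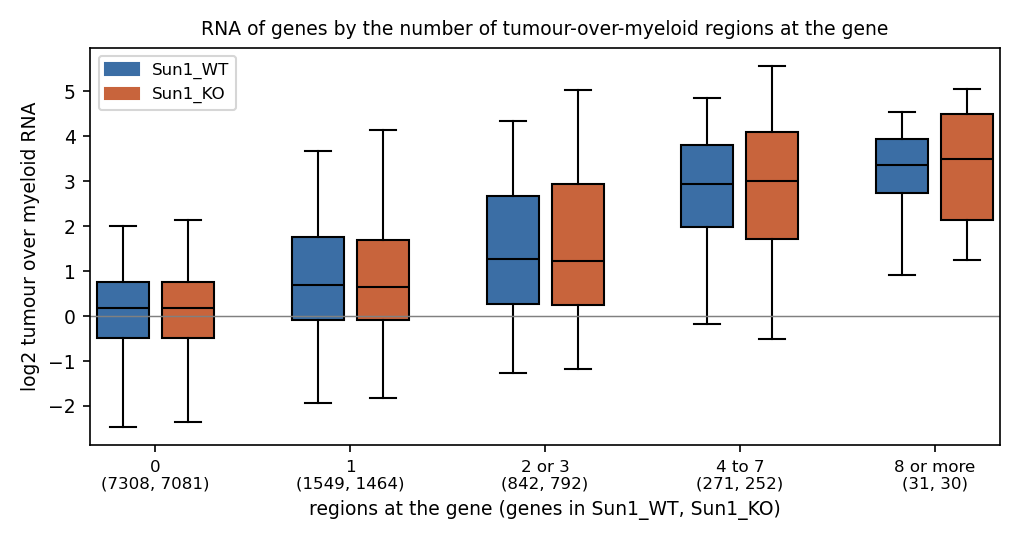
Boxes give the log2 ratio of tumour over myeloid RNA (y axis) of measured genes by the number of tumour-over-myeloid regions assigned to the gene (x axis), with the median, the quartiles and whiskers at the 5th and 95th percentiles, and the number of genes under each class. The median rises from 0.17 at genes with none to 3.36 at genes with 8 or more in Sun1_WT, and from 0.18 to 3.49 in Sun1_KO.

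Genes with more eligible peaks have more chances to hold such regions, so the share of a gene's peaks was also used. Among genes with at least 4 eligible peaks, RNA was at least 2-fold higher in Sun1_WT tumour nuclei for 18.8% of the 750 with no such region, 35.8% of the 835 where they were under 50% of the peaks, 71.0% of the 455 where they were 50% or more but not all, and 97.1% of the 70 where every eligible peak was one. The same shares in Sun1_KO were 18.4%, 35.9%, 70.1% and 95.3%. Of genes with at least 4 regions, 4 had RNA at least 2-fold lower in Sun1_WT tumour nuclei, Arhgap26, Psd3, Akap13 and Il16. Psd3, with 5 regions, had 2310 tumour and 781 myeloid UMIs in Sun1_WT, a log2 ratio of -2.83 (-2.94 to -2.71), and -2.37 in Sun1_KO. Akap13, an anchoring protein gene, stood at -1.17 and -1.01.

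Sorcs2, a sorting receptor gene on chromosome 5, had the most regions, 15 of its 22 eligible peaks. Its RNA was at 1217 tumour and 7 myeloid UMIs in Sun1_WT, a log2 ratio of 2.95 (2.01 to 4.37), and at 591 against 2 UMIs in the Sun1_KO library, with 4.17 (2.63 to 7.54). Col5a1, a fibrillar collagen gene, and Tspan9 had 13 of 15 each, with log2 ratios of 4.22 and 3.69 in Sun1_WT and 1.98 and 3.56 in Sun1_KO. Lmo7, the gene of an actin-linked LIM protein, had 11 of 11, with 17221 tumour and 69 myeloid UMIs in Sun1_WT and 11649 and 31 in Sun1_KO.

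Grouped by function, the TEAD and YAP factor genes, which control growth in contact with matrix and neighbours, had 27 of their 42 eligible peaks (64.3%) as tumour-over-myeloid regions, against 29.6% of all eligible peaks. Tead1 had 9 of 11, Tead4 6 of 8, Wwtr1 4 of 4 and Tead2 2 of 2. RNA was at least 2-fold higher in tumour nuclei for 6 of the 7 measured genes in both genotypes, where 27.1% of all measured genes were in Sun1_WT and 26.9% in Sun1_KO, Vgll4 being the exception with log2 ratios of 0.11 and 0.57. The region at the Wwtr1 promoter (chr3:57575580-57576389), whose gene encodes the YAP paralogue TAZ, had 9841 tumour, 27 myeloid and 27 lymphocyte counts in Sun1_WT and 6431, 9 and 33 in Sun1_KO, and that at the Tead1 promoter (chr7:112678844-112679717) had 9788, 47 and 47 and 7032, 24 and 53. A region in Tead3 (chr17:28340700-28341539) was the most counted, at 13361, 68 and 74 and 9729, 28 and 135. In Sun1_KO all 3 were far higher in tumour than in myeloid nuclei, while in Sun1_WT the choice required a ratio of at least 8.

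Known targets of the pathway had 24 of 71 eligible peaks (33.8%) as tumour-over-myeloid regions, a share near the 29.6% of all eligible peaks. The promoter region of Ccn1, a secreted matricellular protein (chr3:145649633-145650357), had 6368 tumour and 6 myeloid counts in Sun1_WT and 5742 and 12 in Sun1_KO. At Ptpn14, a phosphatase gene, both eligible peaks were such regions, the promoter (chr1:189727766-189728432) at a Sun1_KO ratio of 23.8 (12.9 to 49.7) and a site 11783 bases away (chr1:189716058-189716912) at 118 (24.5 to 733). RNA was at least 2-fold higher in tumour nuclei for 11 of 17 measured target genes in Sun1_WT and 14 of 17 in Sun1_KO, beside the same 27.1% and 26.9% of all genes. Ccn2 had no such region among its 2 eligible peaks, with log2 RNA ratios of 2.91 and 2.22.

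Matrix and adhesion genes had 55 of 133 eligible peaks (41.4%) as such regions and growth factor signalling genes 35 of 91 (38.5%). The share over all eligible peaks was 29.6%. At Col5a1, the promoter region (chr2:27885766-27886597) had 9327 tumour and 43 myeloid counts in Sun1_WT and 7337 and 15 in Sun1_KO. At Ereg, an EGFR ligand gene, all 5 eligible peaks were such regions, and the promoter (chr5:91074057-91074961) had 9412 and 21 counts in Sun1_WT and 6758 and 12 in Sun1_KO. Near Hbegf, another EGFR ligand gene on chromosome 18, the 2 most counted regions had Sun1_KO ratios of 12.4 and 25.6. Matrix RNA was at least 2-fold higher in tumour nuclei for 15 of 21 genes in Sun1_WT and 11 of 21 in Sun1_KO. Growth factor RNA was that much higher for 13 of 19 and 14 of 20, where 27.1% and 26.9% of all measured genes were.

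Of the fibroblast list, 22 of 28 eligible peaks (78.6%) were tumour-over-myeloid regions, against 29.6% of all eligible peaks. All 7 at Dcn, the gene of a matrix proteoglycan, and 6 of 8 at Col1a1, the gene of a type I collagen chain, were among them. RNA of the list was at least 2-fold higher in tumour nuclei for 6 of 8 genes in Sun1_WT and 3 of 8 in Sun1_KO. Of all measured genes 27.1% and 26.9% were. The median log2 ratio of the list was 2.26 in Sun1_WT and 0.68 in Sun1_KO. The Col1a1 promoter region (chr11:94935700-94936506) had 3571 tumour and 24 myeloid counts in Sun1_WT and 2396 and 18 in Sun1_KO. Col1a1 RNA had log2 ratios of 2.61 in Sun1_WT, with 37 myeloid UMIs, and -0.51 in Sun1_KO, with 357 myeloid UMIs. The accessibility ratio at its promoter was 8.02 (4.58 to 15.6) and 9.93 (5.21 to 21.8) in the same nuclei. The RNA ratio thus changed sign and that of the promoter did not, but the choice required at least 8 in Sun1_WT. The 5 Sun1_KO myeloid nuclei with at least 5% of their counts in the regions had 11903 CPM of the fibroblast list, and the 9 such Sun1_WT nuclei 1856 CPM, and their part in the Col1a1 ratio was not tested.

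Transcription factors of the mesenchymal list had 12 of 33 eligible peaks (36.4%) as such regions and those of the epithelial list 7 of 10 (70.0%). The share over all eligible peaks was 29.6%, not far below that of the mesenchymal list. All 7 eligible peaks at Twist2, of the mesenchymal list, were such regions, and Twist2 RNA had log2 ratios of 4.0 and 3.83. The Twist2 promoter (chr1:91800980-91801886) was at 8279 tumour and 34 myeloid counts in Sun1_WT and 6049 and 20 in Sun1_KO. The only eligible peak at Sox9, its promoter (chr11:112781664-112782592), had 5725 and 16 counts in Sun1_WT and 4281 and 9 in Sun1_KO, and its RNA had log2 ratios of 2.95 and 2.38. All 3 at Cdx2, an intestinal transcription factor gene, were such regions with Sun1_KO ratios of 22.7 and 12.9 for the 2 most counted, while Cdx2 RNA was at 49 and 30 UMIs over all tumour nuclei, below the minimum for comparison.

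AP-1 factor genes stood apart from the AP-1 letters found in promoters, with 5 of 38 eligible peaks (13.2%) as tumour-over-myeloid regions, against 29.6% of all. One lay 2573 bases from the start of Fosl1 (chr19:5444670-5445580), with 5544 tumour and 27 myeloid counts in Sun1_WT and 3743 and 19 in Sun1_KO. Fosl1 was the only 1 of the 8 measured AP-1 genes with RNA at least 2-fold higher in tumour nuclei, at log2 ratios of 3.59 and 3.62, while Junb stood at -2.06 and -1.97. AP-1 RNA was at least 2-fold lower in tumour than in myeloid nuclei for 4 of the 8 in Sun1_WT and 3 in Sun1_KO. Of all measured genes 14.3% and 13.9% were. RUNX genes had 4 of 19 eligible peaks (21.1%) and the housekeeping list 6 of 42 (14.3%) as such regions, beside the same 29.6%.

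Tumour-over-myeloid regions were chosen for low myeloid counts, so low shares at genes of the myeloid lineage are partly set by the choice. The myeloid identity list had 1 such region among 17 eligible peaks (5.88%), against 29.6% of all eligible peaks. It lay in Mrc1 49988 bases from its start (chr2:14278951-14279853), with 2425 tumour and 4 myeloid counts in Sun1_WT and 1633 and 10 in Sun1_KO. Mrc1 RNA was nonetheless at 120 tumour and 1822 myeloid UMIs in Sun1_WT. Myeloid transcription factors had 8 of 33 (24.2%), near the share of all eligible peaks, of which 4 at Mitf and none at Spi1, the PU.1 gene. The most counted at Mitf (chr6:97952593-97953501) had a Sun1_KO ratio of 71.7 (19.8 to 593), and Mitf RNA had log2 ratios of -0.76 and -0.85. The lymphocyte marker list had 5 of 13 eligible peaks (38.5%) as such regions. The tumour marker list had 16 of 42 (38.1%), and the share of all eligible peaks was 29.6%. Near Prf1, the perforin gene of cytotoxic cells, the region with most counts (chr10:61286077-61286905) had Sun1_KO CPM of 21.3 in tumour, 1.45 in myeloid and 5.97 in lymphocyte nuclei.

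Between the genotypes the regions differed little in tumour nuclei. The log2 ratio of Sun1_KO over Sun1_WT tumour CPM had a median of -0.04, and 90% of regions lay between -0.58 and 0.34. Of the 11724 regions with a Sun1_KO peak, 122 (1.04%) were at least 2-fold lower in Sun1_KO, where 0.575% of all such eligible peaks were. At least 2-fold higher were 10 (0.0853%), where 0.058% were. The 100 regions without a Sun1_KO peak have no ratio and are in neither count. The Sun1_WT tumour counts of this ratio also chose the regions, so it is read beside the same values of the other eligible peaks. Of the 122, 101 had fewer than 2000 Sun1_WT counts, and among peaks of 1000 to 2000 counts 1.97% of the regions and 0.813% of the other eligible peaks were that much lower. At 4000 counts or more it was 2 regions (0.0978%) and 2 other peaks (0.0184%).

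**Figure D5:**
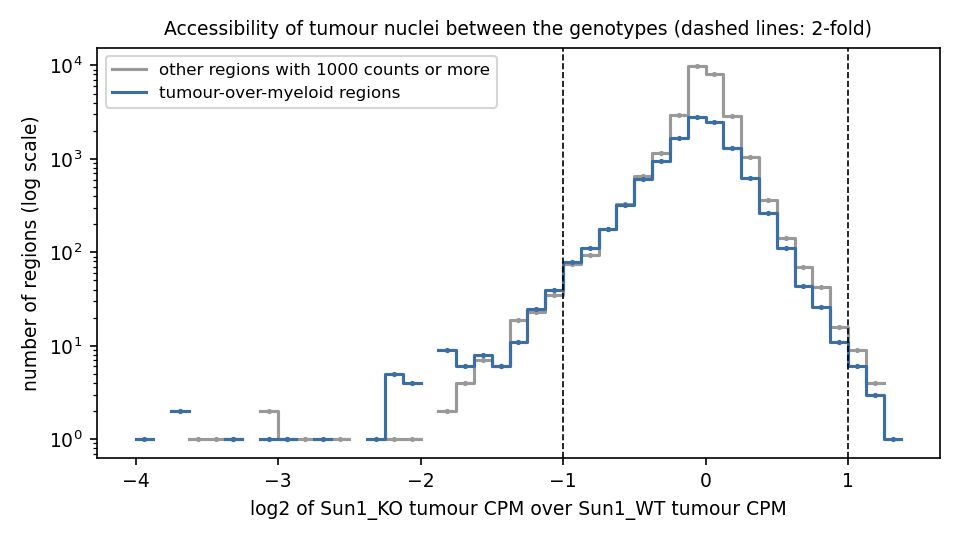
Numbers of regions (y axis, log scale) by the log2 ratio of Sun1_KO over Sun1_WT tumour CPM (x axis), with dashed lines at 2-fold. Shown are the tumour-over-myeloid regions and the other eligible peaks, each where a Sun1_KO peak overlapped. Both centre near 0, 122 regions lie at or below -1 and 10 at or above 1.

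The lower regions were mostly away from gene starts, 70 between genes, 47 in gene bodies and 5 at promoters, and 54.9% of them had no start within 50 kb, against 30.8% of the regions within 2-fold. The largest difference was in Gas7, a cytoskeletal adaptor gene on chromosome 11. A region in its body (chr11:67532452-67533351) had 2158 tumour counts in Sun1_WT against 104 in Sun1_KO, a log2 ratio of -3.90 (-4.34 to -3.51), and a second (chr11:67515162-67516091) had 5048 and 278, a log2 ratio of -3.71 (-3.97 to -3.47). In lymphocyte nuclei these had 26 and 85 counts in Sun1_WT and 69 and 61 in Sun1_KO, and in myeloid nuclei 6 and 15 against 10 and 23, so only the lymphocyte count of the second was lower in Sun1_KO. Gas7 RNA in tumour nuclei came to 429 UMIs in Sun1_WT against 42 in Sun1_KO, which is -2.50 on the log2 scale (-3.01 to -2.05).

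The 5 most lower and the 5 most higher were ranked by the bound of the interval nearest to no difference, so they need not have the 5 most extreme ratios. The others among the 5 most lower were a region 53092 bases from Myh13 (chr11:67379776-67380614, 2839 against 156 counts, log2 -3.71), one far from any start on chromosome 3 (chr3:39269092-39269908, 2625 against 198, log2 -3.26) and one in Shank2 (chr7:144354823-144355740, 2000 against 188, log2 -2.94). The Myh13 region and those in Gas7 are neighbours, between positions 67379776 and 67533351 of chromosome 11. Between them lay another region (chr11:67407958-67408862, 1009 Sun1_WT tumour counts) whose nearest Sun1_KO peak was 27308 bases away, so it has no ratio. The 5 most higher in Sun1_KO lay in Adgrv1 (chr13:81534652-81535550, 1115 against 1947 counts, log2 1.27), 408024 bases from Trps1 (chr15:50246302-50247164, 1511 against 2589, log2 1.24), in Sgce (chr6:4708743-4709651, 1213 against 2082, log2 1.25), in Glis3 (chr19:28388859-28389762, 1033 against 1718, log2 1.20) and 20502 bases from Gm10248 (chr14:23114634-23115512, 1738 against 2692, log2 1.10).

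RNA of the genes at these regions moved in the same direction for some. Of 49 measured genes overlapped by or within 50 kb of a region at least 2-fold lower, 8 had RNA at least 2-fold lower in Sun1_KO tumour nuclei (16.3%), where 2.82% of all measured genes were, and 3 at least 2-fold higher, where 3.04% were. Among 3274 genes at regions within 2-fold alone it was 2.93% and 2.84%. The 8 were Eln, the elastin gene (170 against 9 UMIs), Tnr, the gene of tenascin-R (555 against 34), Gas7, Cfap45 (134 against 13), Phactr1, a phosphatase and actin regulator gene (1476 against 225), Gm10865 (95 against 19), Gzmk, a granzyme gene (598 against 127), and Prxl2a (433 against 111). The 3 that went the other way were Naaladl2 (100 against 130), Adamtsl1 (52 against 85) and Pdzrn3 (135 against 357), and the median log2 ratio of the 49 was -0.15, against 0.14 over all genes. Glis3, at a region that was higher, went from 1541 UMIs in Sun1_WT to 2565 in Sun1_KO, 1.58 on the log2 scale (1.48 to 1.67), while Adgrv1 had 70 and 36, a log2 ratio of -0.11 (-0.74 to 0.48).

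On chromosome 15 from 78 to 86 Mb, 95 regions had a median log2 ratio of -0.40 between the genotypes, the same as all 388 eligible peaks there. Their median tumour over myeloid ratio in Sun1_KO was 14.9.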

How the data were processed

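Gene tables hold UMI counts and peak tables hold accessibility counts per nucleus, as deposited by the authors, and mm10, Cell Ranger, Cell Ranger ARC, FastQC, Seurat and Signac are named in the submitters' processing notes without versions or roles. Peak names differ between the libraries, so Sun1_KO was read through Sun1_KO peaks overlapping by at least 1 base. Where several overlapped they were summed, and for ratios between genotypes Sun1_WT peaks sharing one were merged. Counts were summed over the nuclei of a gate and divided by their total over all peaks. RNA ratios used 0.5 added to sums without mitochondrial genes, for genes with at least 100 UMIs. Intervals are exact conditional binomial intervals, and a ratio over a count of 0 was computed against 3 counts. No nucleus was filtered and no doublet caller was run. The method was tested on simulated counts. No sequence of distal regions was at hand, so the planned motif search in the central bases of the regions was made in promoter windows of RefSeq (GRCm38.p6) instead, where 20251 of 32285 genes had a start. Peak coordinates are as the authors' files give them. Named regions were those with the 10 highest and 5 lowest Sun1_KO ratios, the 5 most higher and lower between genotypes, those at the threshold or at Hmga2, and up to 3 per gene list. Printed sequences are promoters among these, which departs from the planned choice and was made after their motif matches were seen. The genes with an opposite RNA ratio were chosen after their values were seen. Members and lists were chosen with earlier results of these data known. The authors' own table of RNA comparisons was not used. Some results are not reported here. Software was Python 3.11.15 with numpy 2.4.6, pandas 2.3.3, scipy 1.17.1 and matplotlib 3.10.9.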

Additional observations from a re-analysis of the deposited data

How the results depend on the processing

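The number of regions depended on the thresholds. It was 6631 with at least 2000 counts, 6321 at 16-fold, 7026 with counts halved under the same minimum and 3452 with counts made binary. It was 16930 with at least 500 counts, 16367 at 4-fold, 13861 with myeloid nuclei free of Hmga2, 13097 with median-ratio scaling, and 10992 to 11826 under the other alternatives for nuclei. Of the 11824 regions, 98.4% were kept with Hmga2-free myeloid nuclei, 92.2% with at least 10 Hmga2 UMIs per 10000 and 28.7% with binary counts. With binary counts 60 regions were lower and 1 was higher by 2-fold or more in Sun1_KO tumour nuclei. The share at promoters was 5.04% within 1000 bases of a start and 17.2% within 5000. The median tumour over myeloid ratio of the regions in Sun1_KO ran from 20.3 (binary) to 31.5 (Hmga2-free myeloid nuclei) over the alternatives run, and that over lymphocytes was 12.9 with at least 6 lymphocyte UMIs. The share of genes at regions with higher RNA in tumour nuclei ran from 49.8% to 52.9% in Sun1_WT and 48.7% to 51.9% in Sun1_KO. The search for motifs in whole peaks was not run. No paired analysis was possible because each genotype and assay had 1 library. Myeloid counts, a median of 7 per region in Sun1_WT, limit each single ratio.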
